A study of Mus musculus with 35 samples.

Results

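The 8 genes described here encode the urokinase-type plasminogen activator (Plau), its receptor (Plaur), 4 matrix metalloproteinases (Mmp3, Mmp9, Mmp10 and Mmp13), their tissue inhibitor Timp1 and the matrix protein osteopontin (Spp1). They were chosen by name from 54752 genes as textbook targets of AP-1, with earlier results of these data known. Their counts beside the shares of all genes are therefore a description and no test of the set. Each was matched through its Ensembl identifier. RNA was sequenced from 35 libraries of mouse embryonic fibroblasts taken at E13.5 and used at passage 2. The embryos came from males with an Oct4-GFP allele (CBA/CaJ × C57BL/6J) and females of a 129 substrain. That substrain is written 129S12/SvJaeJ for 2 libraries and carries a different number in each of the others, so it is uncertain. All groups were infected with retroviruses for 48 hours and then moved to iCD3 medium with a Rock inhibitor. Minus-Jdp2 cells, by their sample names, received Esrrb, Glis1 and Sall4. Minus-Esrrb cells received Jdp2, Glis1 and Sall4, Minus-Glis1 cells received Jdp2, Esrrb and Sall4, and Minus-Sall4 cells received Jdp2, Esrrb and Glis1. Each of these 4 leave-out arms has 8 libraries, 1 for each day from 0 to 7. JEGS cells received all 4 factors and have 3 libraries, from days 2, 4 and 6.

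Urokinase is a secreted serine protease that turns plasminogen into plasmin, and its receptor holds it at the cell surface. Plasmin cleaves matrix proteins and activates several metalloproteinases, which degrade collagens, proteoglycans and laminins and are blocked by TIMP proteins. AP-1 is a family of dimers of Jun, Fos, Atf and Batf proteins that bind a short palindromic element. Such elements lie in the regulatory regions of Plau, Plaur, Mmp3, Mmp9 and Mmp13, and growth factors, phorbol esters and wounding induce these genes in fibroblasts through them. Jdp2, a factor of the set, binds the same element and is known as a repressor of AP-1. Binding and activity of AP-1 were not measured in these libraries.

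The promoter windows that hold the AP-1 element are shown first because 3 of them belong to genes of the same cluster that are described together. Mmp13 (chr9:7272514-7283331), Mmp3 (chr9:7445822-7455975) and Mmp10 (chr9:7502352-7510240) lie on the plus strand in a cluster of 10 metalloproteinase genes within 427072 bases of the GENCODE annotation of GRCm38. The 3 genes are not directly next to each other: Mmp12 and Mmp1b lie between Mmp13 and Mmp3, and Mmp1a between Mmp3 and Mmp10. Plaur lies at chr7:24462484-24475968, also on the plus strand. RefSeq promoter entries of GRCm38.p6, from 250 bases before to 50 bases after the start, were found for 6 of the 8 genes (Plaur, Mmp3, Mmp10, Mmp13, Timp1 and Spp1). The AP-1 element TGACTCA, searched on both strands (the other strand reads TGAGTCA), was present in 4 of these 6 genes. It was present in 1709 of all 32851 promoter entries of that length, or 5.2%. The genes were picked as AP-1 targets and are counted by gene, not by entry, so setting these shares side by side is no test. The related element TGACGTCA, which shares no full match with the AP-1 element, was in none of the 6 and in 1.79% of all entries. Each line gives the 120 plus-strand bases before the start, 5′ to 3′, with the AP-1 element in capitals.
Mmp13 (chr9:7272394-7272513): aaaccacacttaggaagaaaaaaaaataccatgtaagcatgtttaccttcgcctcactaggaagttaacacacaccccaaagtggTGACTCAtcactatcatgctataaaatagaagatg
Mmp3 (chr9:7445702-7445821): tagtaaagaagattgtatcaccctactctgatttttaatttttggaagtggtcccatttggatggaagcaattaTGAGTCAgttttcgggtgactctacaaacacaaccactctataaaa
Mmp10 (chr9:7502222-7502341): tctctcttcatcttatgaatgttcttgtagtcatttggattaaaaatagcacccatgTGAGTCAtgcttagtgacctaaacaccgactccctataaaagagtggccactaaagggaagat
Plaur (chr7:24462363-24462482): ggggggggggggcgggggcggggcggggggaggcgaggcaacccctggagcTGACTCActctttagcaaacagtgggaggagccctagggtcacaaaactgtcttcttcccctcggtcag
The element began 35 bases before the start in Mmp13, 46 in Mmp3, 63 in Mmp10 and 69 in Plaur. The letters are absent from the 300-base windows of Timp1 (chrX:20870166-20874735) and Spp1 (chr5:104435118-104441050), which says nothing about elements elsewhere. Plau (chr14:20836660-20843385) and Mmp9 (chr2:164940780-164955850) are named by position.

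Library depth ran from 1266379 to 3608456 expected counts, so 1 count was worth 0.277 to 0.79 CPM (counts scaled to a common library total). Levels are in TPM, which is scaled to transcript length and to the same total in each library. The left-out factors followed the sample names: Jdp2 stood at 10.9 to 43.5 TPM in Minus-Jdp2 against 278 to 919.6 TPM in JEGS, and Esrrb at 6.18 to 70.5 TPM in Minus-Esrrb against 998 to 2746 TPM. Glis1 stood at 0 to 8.98 TPM in Minus-Glis1 against 258 to 842 TPM in JEGS, and Sall4 at 0.330 to 7.37 TPM in Minus-Sall4 against 402 to 977 TPM. Delivered factors were not at equal levels in the arms that received them, with a median for Esrrb of 2158 TPM in Minus-Jdp2 against 6658 TPM in Minus-Sall4. Each arm and day has 1 library, and the labels do not say that libraries of an arm are separate cultures, so p-values here describe spread from library to library only. Days of an arm stand in as replicates, so that spread may be technical or hold differences between arms in their course over days. Loss of a factor cannot be told apart from unequal delivery of the rest or from a batch, and JEGS libraries carry a repeat number in their names that the others lack. In bulk RNA, fewer cells of a type and less RNA per cell cannot be told apart either.

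Plau, Plaur, Timp1, Mmp9 and Spp1 were present in all 35 libraries, with Spp1 up to 2764 TPM. The 3 clustered metalloproteinases were close to the limit of detection. Mmp3 had a median of 4 counts and was at 0 in 3 libraries, Mmp10 a median of 12 counts and at 0 in 4, and Mmp13 a median of 5 counts and at 0 in 4. All 8 passed the filter on low counts (at least 1 CPM in 3 libraries). Changes are log2 fold changes ± standard error (SE) from the quasi-likelihood test of edgeR, two-sided, and "called" means a Benjamini-Hochberg adjusted p under 0.05 over all genes tested.

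**Figure D1:**
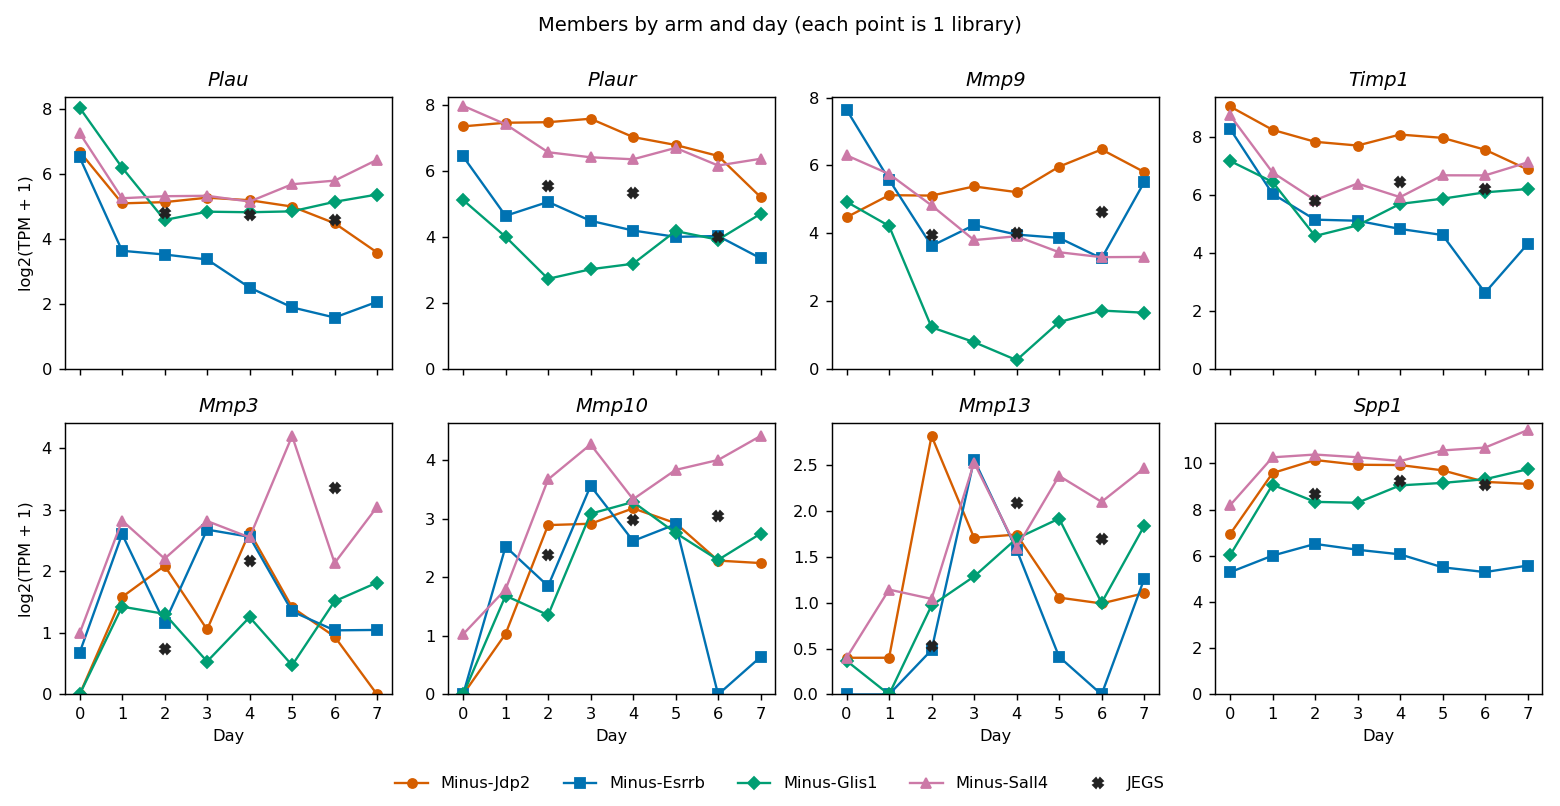
Level of each gene as log2(TPM + 1) against day for the 4 leave-out arms (lines, 8 libraries each) and JEGS (crosses, days 2, 4 and 6), 1 point per library. Plau and Timp1 are highest on day 0 in each leave-out arm, while Spp1 is higher on day 1 than on day 0 in all of them, and Minus-Esrrb has the lowest Spp1 line on every day.

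The libraries of day 0 stood apart from those of later days, and over the 4 leave-out arms together 4 genes were lower and 4 higher after day 0. Plau stood at 33.1, 11.4, 72.3 and 37.1 TPM on day 1 in Minus-Jdp2, Minus-Esrrb, Minus-Glis1 and Minus-Sall4, against 102, 90.6, 263 and 152 TPM on day 0 in the same arms. Day 0 held the highest Plau value of every arm. Timp1 stood at 307, 65.2, 87.2 and 109.7 TPM on day 1 against 538, 314, 145 and 435 TPM on day 0, in the same order of arms, and was lower on day 1 in all 4. Spp1 did the opposite, with 762, 63.3, 537 and 1223 TPM on day 1 against 121, 38.0, 63.8 and 289 TPM on day 0. Against day 0, over the 4 leave-out arms, days 1 to 7 had lower Plau (-2.75 ± 0.30, adjusted p = 2e-08), Timp1 (-2.25 ± 0.28, adjusted p = 2.9e-07), Mmp9 (-2.70 ± 0.45, adjusted p = 2.4e-05) and Plaur (-1.52 ± 0.30, adjusted p = 0.00021). Spp1 was higher (2.21 ± 0.37, adjusted p = 3.1e-05), and so were the 3 clustered genes. The pooled direction of Mmp9 and Plaur did not hold in every arm. Mmp9 stood at 33.8, 46.8, 17.5 and 52.6 TPM on day 1 against 21.1, 199, 29.4 and 77.5 TPM on day 0, and in Minus-Jdp2 day 0 was its lowest library. Plaur stood at 176, 23.9, 15.04 and 170.5 TPM on day 1 against 163, 86.2, 33.8 and 252 TPM on day 0, and in Minus-Jdp2 days 1, 2 and 3 were all above day 0. The comparison of days 1 to 7 with day 0 was added after the values were seen. All 8 genes were called in it, where 32.5% of all genes were called and the median change of all genes was 0.10.

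Mmp3, Mmp10 and Mmp13 were nearly absent on day 0, so their change is given as a ratio of summed counts with an exact 95% interval that covers counting error only. Mmp10, the enzyme stromelysin 2, had 525 counts in the 28 libraries of days 1 to 7 against 2 counts in the 4 libraries of day 0. In CPM the ratio was 31.5 (8.67 to 260), with adjusted p = 9.9e-05 by edgeR. Mmp3, stromelysin 1, had 241 counts against 3, a ratio of 9.63 (3.26 to 47.0), with adjusted p = 0.0069. Mmp13, the main interstitial collagenase of rodents, had 237 counts against 3, a ratio of 9.47 (3.20 to 46.2), with adjusted p = 0.015. These 3 genes of the cluster thus shared a direction after day 0, and the Mmp13 call was lost without the Minus-Sall4 library of day 0 (adjusted p = 0.076). RSEM divides reads that match related genes, and no value here shows how many of these counts were divided.

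Between leave-out arms, Minus-Esrrb had by median the least Plau, Timp1 and Spp1, Minus-Glis1 the least Plaur and Mmp9, and Minus-Sall4 the most Mmp3, Mmp10, Mmp13 and Spp1. Each of the 8 genes differed between the arms by a test over all 4, at adjusted p from 1.9e-11 for Spp1 to 0.046 for Mmp13, where 62.9% of all genes were called. Over days 1 to 7 only, a span added after the values were seen, Mmp13 was not called (adjusted p = 0.067), so that 7 of 8 were, where 65.8% of all genes were called. In Minus-Jdp2 versus Minus-Esrrb, 4 of the 8 genes were higher and 0 lower (22.0% of all genes called, member median 1.48). In Minus-Jdp2 versus Minus-Glis1, 3 were higher and 0 lower (35.2% called, median 0.36). In Minus-Jdp2 versus Minus-Sall4, 2 were higher and 4 lower (35.2% called, median -0.85). The share called against Minus-Glis1 was close to that of all genes. In Minus-Esrrb versus Minus-Glis1, 1 was higher and 2 lower (43.2% called, median -0.57), again a share close to that of all genes. In Minus-Esrrb versus Minus-Sall4, 0 were higher and 7 lower (47.0% called, median -1.82). In Minus-Glis1 versus Minus-Sall4, 0 were higher and 6 lower (32.1% called, median -1.49). Medians over all genes in these 6 comparisons ran from -0.02 to 0.03. The comparisons share arms, so their counts are not independent of each other.

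**Figure D2:**
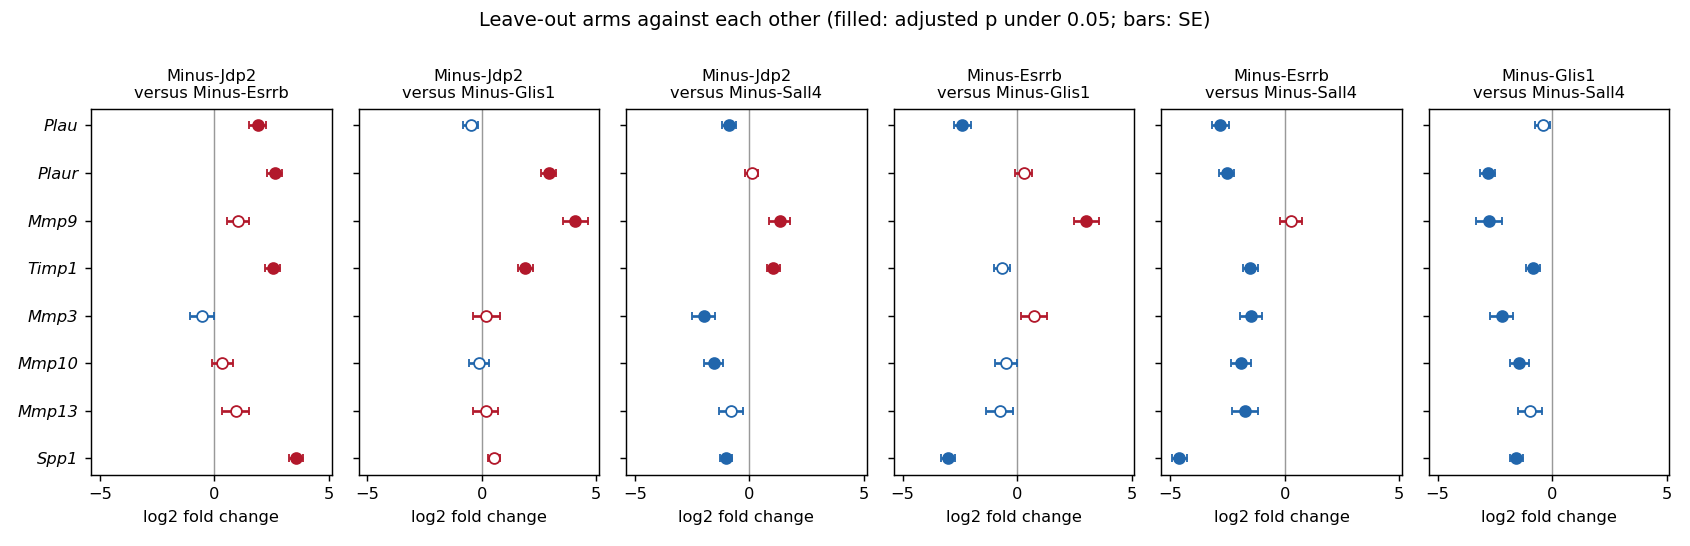
Log2 fold change of each gene (x axis) in the 6 comparisons between leave-out arms, the arm named on top over the arm below it, with bars of 1 SE. Filled points passed adjusted p under 0.05, red points are higher and blue points lower in the arm named on top. In the panel of Minus-Esrrb versus Minus-Sall4 every gene except Mmp9 lies left of 0 and is filled.

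The urokinase genes were expressed at different levels in the arms and did not follow the same order. Plau, the protease, ran from 10.9 to 102 TPM (median 33.6) in Minus-Jdp2, 1.98 to 90.6 TPM (median 6.98) in Minus-Esrrb, 22.9 to 263 TPM (median 31) in Minus-Glis1 and 34.5 to 152 TPM (median 44.8) in Minus-Sall4. By median the order was Minus-Sall4, Minus-Jdp2, Minus-Glis1 and Minus-Esrrb, and on all 8 days Minus-Esrrb was the lowest arm. Plau was lower in Minus-Esrrb than in Minus-Glis1 (-2.39 ± 0.36, adjusted p = 4.2e-06) and Minus-Sall4 (-2.81 ± 0.37, adjusted p = 4.1e-07), and higher in Minus-Jdp2 than in Minus-Esrrb (1.90 ± 0.37, adjusted p = 0.00031). The 3 other arms stood close together. Minus-Jdp2 and Minus-Glis1 were not told apart (-0.49 ± 0.32, adjusted p = 0.26), nor were Minus-Glis1 and Minus-Sall4 (-0.41 ± 0.32, adjusted p = 0.35). Plau was lower in Minus-Jdp2 than in Minus-Sall4 (-0.90 ± 0.32, adjusted p = 0.03), a call lost in 6 of 32 fits with 1 library left out. These were the Minus-Jdp2 libraries of days 0, 6 and 7 and the Minus-Sall4 libraries of days 5, 6 and 7, with values from -0.88 to -0.68 and adjusted p from 0.054 to 0.083. By limma on log2(TPM + 1) this Plau difference was -0.72 (adjusted p = 0.1).

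Plaur, the receptor, separated the arms into a high pair and a low pair. It covered 36.0 to 191 TPM (median 146) in Minus-Jdp2, 9.20 to 86.2 TPM (median 19.4) in Minus-Esrrb, 5.62 to 33.8 TPM (median 14.6) in Minus-Glis1 and 70.9 to 252 TPM (median 89.3) in Minus-Sall4. Minus-Glis1 did not overlap Minus-Jdp2 or Minus-Sall4, and Minus-Esrrb overlapped Minus-Sall4 only through its library of day 0, at 86.2 TPM. Plaur was higher in Minus-Jdp2 than in Minus-Esrrb (2.63 ± 0.33, 6.18-fold, adjusted p = 8.7e-07) and Minus-Glis1 (2.92 ± 0.33, 7.55-fold, adjusted p = 6.3e-08). It was lower in Minus-Esrrb than in Minus-Sall4 (-2.53 ± 0.32, adjusted p = 2.5e-07) and in Minus-Glis1 than in Minus-Sall4 (-2.82 ± 0.33, adjusted p = 9.1e-08). Within each pair the arms were not told apart, at 0.10 ± 0.28 for Minus-Jdp2 versus Minus-Sall4 (adjusted p = 0.83) and 0.29 ± 0.36 for Minus-Esrrb versus Minus-Glis1 (adjusted p = 0.55). Receptor and protease thus parted between these arms: the median of Plaur was 146 TPM in Minus-Jdp2 against 14.6 TPM in Minus-Glis1, and that of Plau was 33.6 against 31 TPM.

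Mmp9, a gelatinase that degrades basement membrane collagen, was lowest in Minus-Glis1 and was highest by median in Minus-Jdp2. Its values were 21.1 to 87.5 TPM (median 38.3) in Minus-Jdp2, 8.54 to 199 TPM (median 16.2) in Minus-Esrrb, 0.190 to 29.4 TPM (median 1.87) in Minus-Glis1 and 8.78 to 77.5 TPM (median 13.4) in Minus-Sall4. The range of Minus-Glis1 overlapped the others only through days 0 and 1: from day 2 on Minus-Glis1 had 0.19 to 2.28 TPM, below every value of the other 3 arms. Counts of Mmp9 in Minus-Glis1 were low, at 1 to 33 (median 5) over days 1 to 7, so fold changes against this arm rest on few counts. Minus-Glis1 was lower than Minus-Sall4 (-2.76 ± 0.55, adjusted p = 0.00028), and Minus-Jdp2 (4.08 ± 0.56, 16.9-fold, adjusted p = 1.5e-06) and Minus-Esrrb (3.03 ± 0.55, adjusted p = 5.1e-05) were higher than Minus-Glis1. Minus-Esrrb was not told apart from Minus-Sall4 (0.27 ± 0.48, adjusted p = 0.68), nor Minus-Jdp2 from Minus-Esrrb (1.05 ± 0.48, adjusted p = 0.12). Over days 1 to 7 only, Mmp9 was called higher in Minus-Jdp2 than in Minus-Esrrb (1.43 ± 0.38, adjusted p = 0.0064), where 25.6% of all genes were called. Mmp9 was higher in Minus-Jdp2 than in Minus-Sall4 (1.32 ± 0.47, adjusted p = 0.03), but 8 of 32 fits with 1 library left out lost this call. They left out Minus-Jdp2 at days 3, 4, 5 and 6 or Minus-Sall4 at days 0, 5, 6 and 7, with values from 0.95 to 1.3 and adjusted p from 0.05 to 0.12, and limma gave 1.12 (adjusted p = 0.091). Neutrophils also make Mmp9, and of 8 neutrophil and mast cell markers S100a8 and S100a9 reached 216 and 329 TPM on day 2 and 254 and 333 TPM on day 3 in Minus-Jdp2. Elane and Mpo were also detected in Minus-Jdp2 alone of the groups, at up to 1.11 TPM on day 3 for Elane and up to 3.72 TPM on day 2 for Mpo. Ly6g went the other way, at up to 5.48 TPM (median 0) in Minus-Jdp2 against 15.1 TPM (median 0.88) in Minus-Sall4. Tpsb2 reached 0.8 TPM in Minus-Glis1 and 1.09 TPM in Minus-Sall4 and was at 0 in the other groups. Cpa3 and Mcpt4 were at 0 in every group. The 8 markers summed to 0 to 588 TPM in Minus-Jdp2, 0 to 12.9 in Minus-Esrrb, 0 to 2.58 in Minus-Glis1, 0 to 22.9 in Minus-Sall4 and 0 to 3.88 in JEGS. In Minus-Jdp2, Mmp9 stood at 33.5 and 40.6 TPM on days 2 and 3, against 33.8 and 36.0 TPM on days 1 and 4, when the markers summed to 0 and 4.21 TPM. The part of these cells in the Mmp9 values was not tested.

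Timp1, which inhibits Mmp9 and most secreted metalloproteinases, was highest in Minus-Jdp2. The values were 118 to 538 TPM (median 241) in Minus-Jdp2, 5.19 to 314 TPM (median 30.6) in Minus-Esrrb, 23.1 to 145 TPM (median 62.8) in Minus-Glis1 and 55.9 to 435 TPM (median 102) in Minus-Sall4. All ranges overlapped, yet on all 8 days Minus-Jdp2 exceeded Minus-Esrrb and Minus-Glis1. It was higher in Minus-Jdp2 than in Minus-Esrrb (2.55 ± 0.33, adjusted p = 1.2e-06), Minus-Glis1 (1.90 ± 0.31, adjusted p = 1.6e-05) and Minus-Sall4 (1.04 ± 0.29, adjusted p = 0.0062). Minus-Esrrb was lower than Minus-Sall4 (-1.50 ± 0.32, adjusted p = 0.00033) and was not told apart from Minus-Glis1 (-0.65 ± 0.34, adjusted p = 0.12). Over days 1 to 7 only, Timp1 was called lower in Minus-Esrrb than in Minus-Glis1 (-1.17 ± 0.30, adjusted p = 0.0025), where 46.0% of all genes were called. The lower level in Minus-Glis1 than in Minus-Sall4 (-0.85 ± 0.31, adjusted p = 0.033) was lost in 6 of 32 fits with 1 library left out. They left out Minus-Glis1 at days 0, 2 and 3 or Minus-Sall4 at days 5, 6 and 7, with values from -0.84 to -0.69 and adjusted p from 0.052 to 0.1, and limma gave -0.89 (adjusted p = 0.057).

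Of the clustered metalloproteinases, Mmp3 and Mmp10 were higher in Minus-Sall4 than in each other leave-out arm, and Mmp13 was higher there than in Minus-Esrrb, all at low levels. Mmp3 covered 0 to 5.24 TPM (median 1.38) in Minus-Jdp2, 0.6 to 5.41 TPM (median 1.4) in Minus-Esrrb, 0 to 2.53 TPM (median 1.44) in Minus-Glis1 and 0.990 to 17.4 TPM (median 5.46) in Minus-Sall4. Mmp10 covered 0 to 8.06 TPM (median 5.15), 0 to 10.8 TPM (median 3.68), 0 to 8.77 TPM (median 4.82) and 1.04 to 20.4 TPM (median 12.5) in Minus-Jdp2, Minus-Esrrb, Minus-Glis1 and Minus-Sall4. Mmp13, in the same order of arms, covered 0.320 to 6.06 TPM (median 1.11), 0 to 4.90 TPM (median 0.365), 0 to 2.78 TPM (median 1.22) and 0.320 to 4.77 TPM (median 2.66). All ranges overlapped, but Mmp10 was higher in Minus-Sall4 on 8 of 8 days than in Minus-Jdp2 and Minus-Glis1, and Mmp3 on 8 of 8 days than in Minus-Glis1. Against Minus-Sall4, Mmp3 was lower in Minus-Jdp2 (-2.0 ± 0.49, adjusted p = 0.002), Minus-Esrrb (-1.47 ± 0.49, adjusted p = 0.015) and Minus-Glis1 (-2.20 ± 0.51, adjusted p = 0.0013). Mmp10 was lower in the same arms, at -1.57 ± 0.40 (adjusted p = 0.0028), -1.91 ± 0.43 (adjusted p = 0.00058) and -1.43 ± 0.40 (adjusted p = 0.0066). Mmp13 was lower in Minus-Esrrb (-1.73 ± 0.56, adjusted p = 0.011), while Minus-Jdp2 stood at -0.80 ± 0.51 (adjusted p = 0.24) and Minus-Glis1 at -0.97 ± 0.51 (adjusted p = 0.15). None of the 3 genes was called among Minus-Jdp2, Minus-Esrrb and Minus-Glis1 by edgeR, where 0 of 9 tests had an unadjusted p under 0.05 (0.12 to 0.76) and DESeq2 called 0. The Mmp3 call of Minus-Esrrb against Minus-Sall4 rested on the Minus-Sall4 library of day 5, at 17.4 TPM: without it the change was -1.07 (adjusted p = 0.072).

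Spp1 had the highest level of the 8 genes and the largest difference between arms. Osteopontin binds integrins and Cd44 and is cleaved by several metalloproteinases. It covered 121 to 1128 TPM (median 795) in Minus-Jdp2, 38.0 to 90.2 TPM (median 55) in Minus-Esrrb, 63.8 to 855 TPM (median 532) in Minus-Glis1 and 289 to 2764 TPM (median 1277) in Minus-Sall4. Minus-Esrrb did not overlap Minus-Jdp2 or Minus-Sall4, and it was below Minus-Glis1 on all 8 days. It was lower in Minus-Esrrb than in Minus-Sall4 (-4.59 ± 0.32, or 24.1-fold, adjusted p = 6.5e-12) and than in Minus-Glis1 (-3.03 ± 0.31, adjusted p = 5.4e-09), and higher in Minus-Jdp2 than in Minus-Esrrb (3.56 ± 0.31, adjusted p = 3.1e-09). It was lower in Minus-Jdp2 (-1.03 ± 0.27, adjusted p = 0.0035) and Minus-Glis1 (-1.56 ± 0.27, adjusted p = 4.7e-05) than in Minus-Sall4. Minus-Jdp2 and Minus-Glis1 were not told apart (0.53 ± 0.27, adjusted p = 0.13). Macrophages also make osteopontin. Of 14 macrophage markers tested, 6 were lower in Minus-Jdp2, 7 lower and 1 higher in Minus-Esrrb and 5 lower in Minus-Glis1 than in Minus-Sall4, where 35.2%, 47.0% and 32.1% of all genes were called in the same order. The share in Minus-Glis1 was thus near that of all genes, and the share in Minus-Jdp2 was not far from it. Of 12 tested against JEGS, 4 were higher and 0 lower in Minus-Sall4, where 23.8% of all genes were called, again not far apart. The 14 markers summed to 19.1 to 59.1 TPM in Minus-Jdp2, 27.1 to 72.2 in Minus-Esrrb, 23.7 to 46.3 in Minus-Glis1, 47.4 to 114 in Minus-Sall4 and 18.3 to 27.9 in JEGS. Their part in the Spp1 values was not tested. Of the 14 markers, 4 had a median of 0 in Minus-Jdp2, 8 in Minus-Esrrb, 2 in Minus-Glis1, 0 in Minus-Sall4 and 7 in JEGS. Depth was uneven, at 1377656 to 1651712 expected counts in Minus-Esrrb, 1266379 to 1682386 in JEGS and 1939226 to 3608456 in Minus-Sall4. The part of depth in these medians was not tested. Adgre1 had medians of 0, 0, 0.3 and 0.275 TPM, and Csf1r of 0.44, 0.345, 3.39 and 1.56 TPM, in Minus-Jdp2, Minus-Esrrb, Minus-Glis1 and Minus-Sall4. In the same order, Lyz2 had medians of 3.29, 2.92, 7.75 and 17.5 TPM. Among the leave-out arms, Ptprc, Lyz2, Tyrobp, Fcer1g, C1qa, C1qb, C1qc, Itgam and Mrc1 had their highest median in Minus-Sall4. Adgre1, Csf1r and Cd68 had it in Minus-Glis1 and Cd14 in Minus-Jdp2. Laptm5 had it in Minus-Esrrb, at 11.9 to 50.7 TPM there.

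Against JEGS, which holds all 4 factors, Plaur and Timp1 were higher in Minus-Jdp2, Spp1, Plau and Timp1 lower in Minus-Esrrb, Mmp9 and Plaur lower in Minus-Glis1, and Spp1, Plaur and Plau higher in Minus-Sall4. Only the matched days 2, 4 and 6 were compared, so each arm has 3 libraries. Plaur stood at 178, 129.9 and 87.0 TPM in Minus-Jdp2, 32.4, 17.3 and 15.3 TPM in Minus-Esrrb, 5.62, 8.09 and 14.1 TPM in Minus-Glis1 and 94.1, 81.0 and 70.9 TPM in Minus-Sall4, against 45.3, 39.7 and 14.96 TPM in JEGS. All 3 values lay above the JEGS range in Minus-Jdp2 and Minus-Sall4 and below it in Minus-Glis1. Timp1 stood at 229.9, 274 and 189.8 TPM in Minus-Jdp2, 34.7, 27.5 and 5.19 TPM in Minus-Esrrb, 23.1, 51.0 and 67.7 TPM in Minus-Glis1 and 55.9, 60.2 and 102 TPM in Minus-Sall4, against 54.6, 86.2 and 73.3 TPM in JEGS. Minus-Jdp2 lay above and Minus-Esrrb below the JEGS range. Spp1 stood at 1128, 969 and 585 TPM in Minus-Jdp2, 90.2, 65.7 and 38.2 TPM in Minus-Esrrb, 321, 527 and 633 TPM in Minus-Glis1 and 1329, 1095 and 1638 TPM in Minus-Sall4, against 409, 599.6 and 534 TPM in JEGS. Minus-Esrrb lay below and Minus-Sall4 above JEGS without overlap.

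In Minus-Jdp2 versus JEGS, 2 of the 8 genes were higher and 0 lower, where 2.82% of all genes were called. They were Plaur (1.92 ± 0.34, adjusted p = 0.0058) and Timp1 (1.63 ± 0.38, adjusted p = 0.028). Mmp9 had 33.5, 36.0 and 87.5 TPM in Minus-Jdp2 against 14.5, 14.97 and 23.5 TPM in JEGS, without overlap, but was not called (1.57 ± 0.45, adjusted p = 0.079). In Minus-Esrrb versus JEGS, 3 genes were lower and 0 higher, where 6.63% of all genes were called. They were Spp1 (-3.09 ± 0.34, adjusted p = 8.8e-05), Plau (-2.59 ± 0.39, adjusted p = 0.00094) and Timp1 (-1.80 ± 0.47, adjusted p = 0.029). Plau had 10.4, 4.65 and 1.98 TPM in Minus-Esrrb against 26.6, 25.9 and 23.0 TPM in JEGS. In Minus-Glis1 versus JEGS, 2 genes were lower and 0 higher, a share close to that of all genes (19.9% called). They were Mmp9 (-3.60 ± 0.63, 12.1-fold, adjusted p = 0.00088), at 1.33, 0.190 and 2.28 TPM in Minus-Glis1 against 14.5, 14.97 and 23.5 TPM in JEGS, and Plaur (-1.44 ± 0.40, adjusted p = 0.018). Mmp9 had only 1 to 12 counts in these Minus-Glis1 libraries, against 40 to 60 in JEGS. In Minus-Sall4 versus JEGS, 3 genes were higher and 0 lower, where 23.8% of all genes were called. They were Spp1 (1.54 ± 0.30, adjusted p = 0.0018), Plaur (1.53 ± 0.34, adjusted p = 0.0041) and Plau (0.92 ± 0.30, adjusted p = 0.036). The 4 comparisons share the JEGS libraries.

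With so few libraries, some of these calls were lost when 1 was left out. Timp1 in Minus-Jdp2 versus JEGS was lost in 5 of 15 such fits (without Minus-Jdp2 at day 2 or 4, or JEGS at day 2, 4 or 6, with adjusted p from 0.1 to 0.15 and changes from 1.47 to 1.76). Timp1 in Minus-Esrrb versus JEGS was lost in 5 of 15 (without Minus-Esrrb at day 4 or 6, or any JEGS library, with adjusted p from 0.052 to 0.13 and changes from -1.87 to -1.23). Plaur in Minus-Glis1 versus JEGS was lost in 4 of 15 (without Minus-Glis1 at day 2 or 4, or JEGS at day 2 or 4, with changes from -1.33 to -0.97 and adjusted p from 0.059 to 0.11). Plau in Minus-Sall4 versus JEGS was lost in 4 of 15 (without Minus-Sall4 at day 6 or any JEGS library, with changes from 0.66 to 1.03 and adjusted p from 0.066 to 0.19). By limma on log2(TPM + 1), the Timp1 difference was 1.69 in Minus-Jdp2 versus JEGS (adjusted p = 0.18) and -1.95 in Minus-Esrrb versus JEGS (adjusted p = 0.066), and the Plau difference in Minus-Sall4 versus JEGS was 0.71 (adjusted p = 0.23).

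Mmp3, Mmp10 and Mmp13 were not called against JEGS in any arm by edgeR, with 0 of 12 unadjusted p under 0.05 (0.057 for Mmp10 to 0.98 for Mmp3, both in Minus-Sall4) and 0 calls by DESeq2. Mmp10 had 11.8, 9.09 and 15.1 TPM in Minus-Sall4 against 4.24, 6.85 and 7.28 TPM in JEGS, without overlap (1.17 ± 0.57, adjusted p = 0.15). Mmp3 in JEGS itself ran over 0.670, 3.51 and 9.23 TPM and Mmp13 over 0.440, 3.25 and 2.24 TPM, which bracket most leave-out values of these days.

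**Figure D3:**
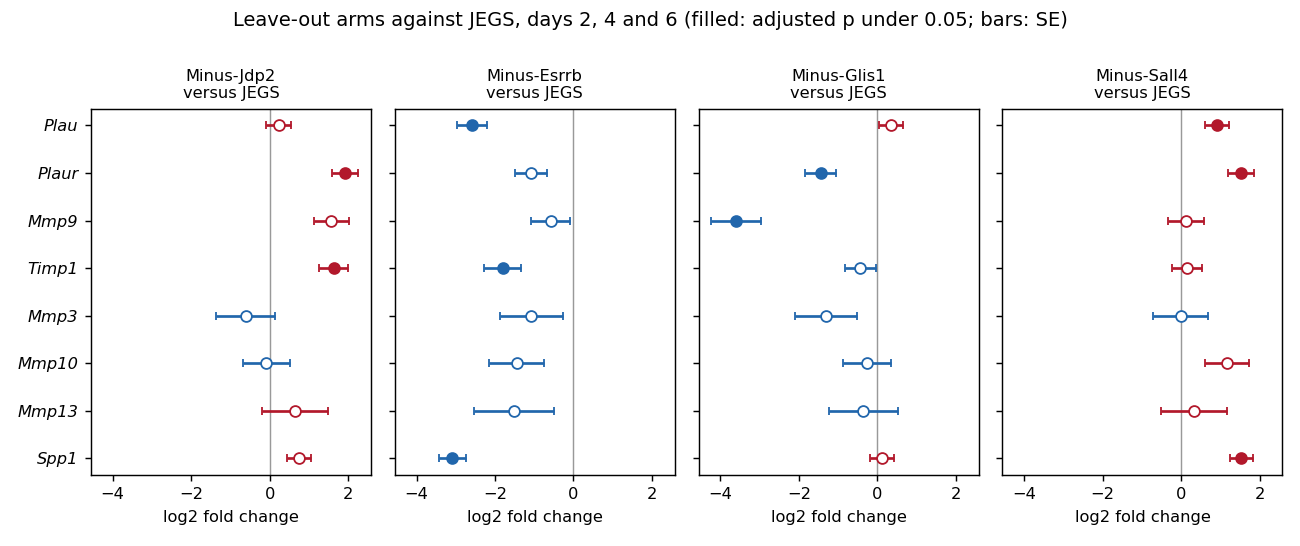
Log2 fold change of each gene (x axis) in each leave-out arm over JEGS at days 2, 4 and 6 (3 libraries each), with bars of 1 SE. Filled points passed adjusted p under 0.05, red points are higher and blue points lower in the leave-out arm. Spp1 is filled at -3.09 in Minus-Esrrb and at 1.54 in Minus-Sall4.

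Within arms, the called slopes over days were those of Plau, Plaur, Timp1 and Mmp9, all were downward, and most were lost without the library of day 0. Linear slopes (log2 change per day over days 0 to 7) were called for 1 gene in Minus-Jdp2 (0 higher, 1 lower, 9.68% of all genes called), 4 in Minus-Esrrb (0 higher, 4 lower, 19.2%), 2 in Minus-Glis1 (0 higher, 2 lower, 7.87%) and 1 in Minus-Sall4 (0 higher, 1 lower, 9.30%). The shares in Minus-Jdp2 and Minus-Sall4 were close to those of all genes. In Minus-Esrrb the slopes were -0.86 ± 0.14 for Plau (adjusted p = 6e-05), -0.67 ± 0.12 for Timp1 (adjusted p = 0.00013), -0.47 ± 0.09 for Plaur (adjusted p = 0.00045) and -0.40 ± 0.11 for Mmp9 (adjusted p = 0.0087). All 4 calls were lost without the day 0 library of this arm, where the slopes were -0.43 for Plau, -0.35 for Timp1, -0.23 for Plaur and -0.05 for Mmp9, at adjusted p of 0.13, 0.11, 0.18 and 0.83. Mmp9 had a slope of -0.62 ± 0.16 in Minus-Glis1 (adjusted p = 0.015) and -0.52 ± 0.13 in Minus-Sall4 (adjusted p = 0.012). Without the day 0 library of the arm they were -0.29 (adjusted p = 0.64) and -0.49 (adjusted p = 0.14). The Plau slope of Minus-Glis1, -0.33 ± 0.09 (adjusted p = 0.026), was -0.09 without day 0 (adjusted p = 0.81) and -0.32 without day 5 (adjusted p = 0.05). The Plaur slope of Minus-Jdp2, -0.30 ± 0.09 (adjusted p = 0.028), was lost without day 6 (-0.31, adjusted p = 0.065) or day 7 (-0.19, adjusted p = 0.25).

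After day 0 the arms took different courses. With day 0 left out of all arms, a choice made after the values were seen, Plaur fell in Minus-Jdp2 by 0.37 per day on the log2 scale (adjusted p = 0.00039), to 36.0 TPM on day 7 against 191 TPM on day 3. Of all genes, 14.0% were called for this slope. In Minus-Esrrb (19.8% of all genes called), Plau (-0.42 ± 0.12, adjusted p = 0.01) and Timp1 (-0.35 ± 0.10, adjusted p = 0.017) fell. In Minus-Sall4 (4.48% called), Mmp9 fell (-0.50 ± 0.11, adjusted p = 0.0069) to 8.83 TPM on day 7 against 52.6 TPM on day 1, and Spp1 rose (0.16 ± 0.05, adjusted p = 0.048) to 2764 TPM on day 7 against 1223 TPM on day 1. Mmp9 in Minus-Jdp2 had a slope of 0.20 ± 0.10, which was not called (adjusted p = 0.19), with its highest value, 87.5 TPM, on day 6. A test of whether the 4 slopes differ called 3 genes over days 0 to 7 (8.96% of all genes called), which were Mmp9 (adjusted p = 0.015), Plau (adjusted p = 0.017) and Timp1 (adjusted p = 0.039). Over days 1 to 7 it called 5 (13.8% of all genes called), which were Spp1 (adjusted p = 0.0018), Plau (0.0029), Plaur (0.007), Mmp9 (0.0075) and Timp1 (0.026). The slopes of Mmp3, Mmp10 and Mmp13 were called in no arm over either span by edgeR. Over days 0 to 7, 1 of 12 unadjusted p was under 0.05, and DESeq2 called 0 with 3 under 0.05.

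**Figure D4:**
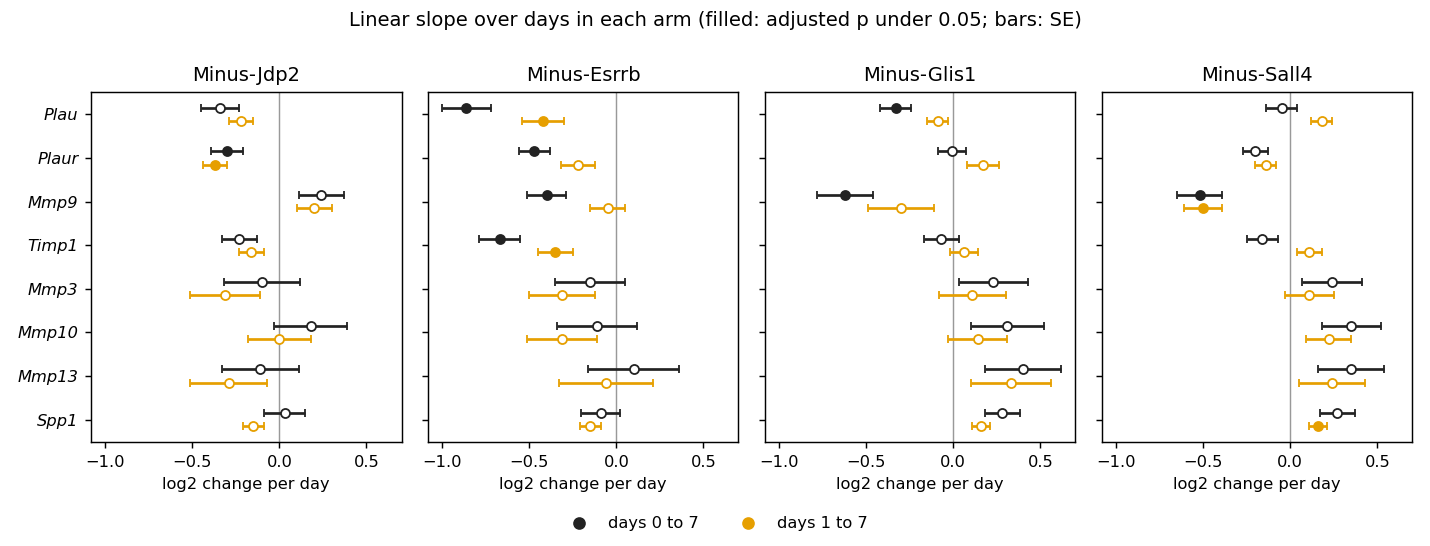
Linear slope of each gene (x axis, log2 change per day) in each leave-out arm over days 0 to 7 (black, 8 libraries) and days 1 to 7 (orange, 7 libraries), with bars of 1 SE, filled where adjusted p was under 0.05. Of the 4 slopes filled in black in Minus-Esrrb, Plau and Timp1 are also filled in orange.

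Other genes of matrix proteolysis, from a list of 45 proteases and inhibitors without the 8 genes, moved both ways between arms. List genes named with a value here and further on were all called by edgeR. For all genes, the shares called were 22.0%, 35.2% and 35.2% in Minus-Jdp2 versus Minus-Esrrb, Minus-Glis1 and Minus-Sall4. They were 43.2% and 47.0% in Minus-Esrrb versus Minus-Glis1 and Minus-Sall4, 32.1% in Minus-Glis1 versus Minus-Sall4 and 32.5% after day 0. Against JEGS they were 2.82%, 6.63%, 19.9% and 23.8% in Minus-Jdp2, Minus-Esrrb, Minus-Glis1 and Minus-Sall4. Counts of this and later lists are to be read beside these shares. Of 35 with enough counts to be tested, 10 were higher and 1 lower in Minus-Jdp2 versus Minus-Esrrb, and 8 higher and 16 lower in Minus-Esrrb versus Minus-Sall4, with medians of 0.28 and -0.48. The counts were 9 higher and 11 lower in Minus-Jdp2 versus Minus-Glis1, 10 and 9 in Minus-Jdp2 versus Minus-Sall4, 5 and 13 in Minus-Esrrb versus Minus-Glis1, and 11 and 11 in Minus-Glis1 versus Minus-Sall4. The membrane protease St14 was higher in Minus-Jdp2 than in Minus-Sall4 (2.66 ± 0.38), where Plau was lower. After day 0, 19 of 35 were lower and 4 higher (median -0.66). Against JEGS, of 34 tested, 2 were higher and 0 lower in Minus-Jdp2, and 1 and 1 in Minus-Esrrb, the latter near the share of all genes. The counts against JEGS were 8 and 2 in Minus-Glis1, and 10 and 3 in Minus-Sall4. Lrp1, the receptor that clears urokinase complexes, was higher in Minus-Sall4 (1.78 ± 0.24). Plasminogen itself (Plg) had a median of 0 TPM in every arm, as did Mmp1a, Mmp1b, Mmp8, Mmp20 and Mmp27 of the cluster.

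Receptors and partners of osteopontin and of the urokinase receptor (11 listed) were mostly higher in Minus-Jdp2 than in Minus-Esrrb and mostly lower in Minus-Esrrb than in Minus-Sall4. Of 9 tested, 7 were higher and 1 lower in Minus-Jdp2 versus Minus-Esrrb, and 2 higher and 6 lower in Minus-Esrrb versus Minus-Sall4. Itgb3, a subunit of the integrin that binds osteopontin and vitronectin, was higher in Minus-Jdp2 than in Minus-Esrrb (2.46 ± 0.27), Minus-Glis1 (2.00 ± 0.25), Minus-Sall4 (0.77 ± 0.23) and JEGS (1.73 ± 0.28). Cd44 was higher in Minus-Jdp2 than in Minus-Esrrb (1.18 ± 0.25). The counts were 4 higher and 1 lower in Minus-Jdp2 versus Minus-Glis1, 2 and 0 in Minus-Jdp2 versus Minus-Sall4, 1 and 4 in Minus-Esrrb versus Minus-Glis1, and 1 and 3 in Minus-Glis1 versus Minus-Sall4. After day 0, 8 of 9 were lower and 1 higher, against the direction of Spp1, with Cd44 at -2.74 ± 0.21 and Itga5, the fibronectin receptor subunit, at -2.30 ± 0.14. Against JEGS, 3 were higher in Minus-Jdp2, 1 in Minus-Esrrb, 2 in Minus-Glis1 and 3 in Minus-Sall4, and 0 were lower. The count in Minus-Glis1 was near the share of all genes.

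Transcripts of AP-1 subunits moved both ways in most comparisons. Of 12 tested of 13 listed, which include Jdp2, 3 were higher and 3 lower in Minus-Jdp2 versus Minus-Esrrb, 4 and 4 in Minus-Jdp2 versus Minus-Glis1, and 3 and 3 in Minus-Jdp2 versus Minus-Sall4. Jdp2 was left out of Minus-Jdp2 by design, at a median of 17.4 TPM there. Its medians were 854, 2593, 1239 and 607 TPM in Minus-Esrrb, Minus-Glis1, Minus-Sall4 and JEGS. Comparisons of Minus-Jdp2, also that against JEGS, thus include a gene whose level the design set. Jdp2 was delivered to all the other groups, so comparisons among them also include a gene whose level depended on delivery. The counts were 0 higher and 4 lower in Minus-Esrrb versus Minus-Glis1, 5 and 6 in Minus-Esrrb versus Minus-Sall4, and 4 and 4 in Minus-Glis1 versus Minus-Sall4. In Minus-Jdp2, where Plaur and Timp1 were high, Atf3 was higher than in Minus-Esrrb (1.80 ± 0.28) and Minus-Glis1 (2.25 ± 0.29), while Fos was lower than in Minus-Glis1 (-2.09 ± 0.27) and Minus-Sall4 (-1.97 ± 0.27). Junb was lower in Minus-Glis1 than in Minus-Sall4 (-1.58 ± 0.25) and higher in Minus-Sall4 than in JEGS (1.69 ± 0.36). After day 0, 5 of 12 were lower, among them Fosl1 (-1.96 ± 0.41) and Fosl2 (-1.23 ± 0.17), and Atf3 was higher (1.35 ± 0.36). Against JEGS, of the AP-1 subunits, 3 were higher and 1 lower in Minus-Jdp2, 0 and 0 in Minus-Esrrb, 1 and 0 in Minus-Glis1, and 4 and 1 in Minus-Sall4.

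Other genes known to respond to AP-1 (16 listed) were mostly higher in Minus-Jdp2 than in Minus-Esrrb and mostly lower in Minus-Esrrb than in Minus-Sall4. Of 15 tested, 9 were higher and 1 lower in Minus-Jdp2 versus Minus-Esrrb (median 1.60), and 1 higher and 12 lower in Minus-Esrrb versus Minus-Sall4 (median -1.59). Hbegf, a ligand of the EGF receptor, was higher in Minus-Jdp2 than in Minus-Esrrb (2.55 ± 0.33) and Minus-Glis1 (2.61 ± 0.33), and lower in Minus-Esrrb (-2.39 ± 0.42) and Minus-Glis1 (-1.59 ± 0.39) than in JEGS. Il11, a cytokine of the interleukin 6 family, was higher in Minus-Jdp2 than in Minus-Esrrb (3.24 ± 0.45) and JEGS (3.23 ± 0.40), with 28.9 to 464 TPM in Minus-Jdp2 against 0 to 0.9 TPM in Minus-Glis1. F3, the coagulation factor receptor, was higher in Minus-Jdp2 than in Minus-Esrrb (2.82 ± 0.29) and lower after day 0 (-4.08 ± 0.21). The counts were 5 higher and 2 lower in Minus-Jdp2 versus Minus-Glis1, 3 and 5 in Minus-Jdp2 versus Minus-Sall4, 2 and 8 in Minus-Esrrb versus Minus-Glis1, and 2 and 8 in Minus-Glis1 versus Minus-Sall4. Against JEGS they were 3 and 1 in Minus-Jdp2, 0 and 4 in Minus-Esrrb, 2 and 2 in Minus-Glis1, and 5 and 0 in Minus-Sall4. After day 0, 9 of 15 were lower and 2 higher.

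Markers of the fibroblasts and of other cell types moved with some of these results. The 14 fibroblast markers summed to 1277 to 4789 TPM on days 1 to 7, against 6828 to 12672 TPM on day 0, in the leave-out arms, and 10 of 14 were lower after day 0 while 0 were higher, as were Plau and Timp1. Over all days the sums were 3353 to 9454 TPM in Minus-Jdp2, 1488 to 6828 in Minus-Esrrb, 1277 to 8582 in Minus-Glis1, 2797 to 12672 in Minus-Sall4 and 1930 to 1998 in JEGS. Gene by gene, 2 were higher and 6 lower in Minus-Jdp2 versus Minus-Esrrb (median -0.53), 4 and 6 versus Minus-Glis1 (median -0.57) and 1 and 6 versus Minus-Sall4 (median -0.39). Markers of osteoblasts and hypertrophic cartilage, cells that make Mmp13 and Spp1, summed to 47.4 to 77.7 TPM in Minus-Jdp2, 45.9 to 92.1 in Minus-Esrrb, 68 to 151 in Minus-Glis1, 54.7 to 77.2 in Minus-Sall4 and 46.8 to 108 in JEGS. Of 9 of them tested, 2 were higher and 1 lower in Minus-Jdp2 versus Minus-Esrrb, and 2 higher and 2 lower in Minus-Esrrb versus Minus-Sall4. Against Minus-Glis1, 1 was higher and 5 lower in Minus-Jdp2 (median -1.40), and 1 higher and 4 lower in Minus-Esrrb (median -1.40). The counts were 3 and 1 in Minus-Jdp2 versus Minus-Sall4, and 3 and 0 in Minus-Glis1 versus Minus-Sall4. Sp7 had medians of 0.945, 27.1, 0.48 and 0 TPM, and Runx2 of 12.4, 6.13, 10.9 and 8.58 TPM, in Minus-Jdp2, Minus-Esrrb, Minus-Glis1 and Minus-Sall4. In the same order, Alpl had medians of 6.6, 12.5, 26.5 and 2.67 TPM, and Acan of 0.36, 0.415, 1.48 and 0.26 TPM. Markers of keratinocytes, which can make Mmp10 and Plaur, summed to 3.24 to 14.4, 7.2 to 29.8, 2.49 to 12.4, 6.48 to 17.8 and 4.38 to 21 TPM in Minus-Jdp2, Minus-Esrrb, Minus-Glis1, Minus-Sall4 and JEGS. Markers of endothelium, which can make Plau and Plaur, summed to 48.1 to 178, 56.4 to 215, 17.9 to 43.7, 17.2 to 60.8 and 35.3 to 73.2 TPM in the same arms. The part of any of these cell types in the results was not tested.

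The genes most like each of the 8 were ranked by Pearson's r of log2(CPM + 1) over the 35 libraries, among 11054 genes with a mean of at least 5 CPM. The libraries share arms and days and differ in depth, so r is a description. Plau was most like Gpc4 (0.95), Rusc2 (0.92) and Prss23 (0.91), and Plaur like Hbegf (0.94), Ap2m1 (0.93) and Serpinb9b (0.92). Timp1 was most like Ptprn (0.94), the intermediate filament gene Vim (0.93) and the chemokine Ccl2 (0.92), and Spp1 like the lysosomal protease Ctsb (0.94), Ldhb (0.91) and Fbxo2 (0.90). Mmp9 was most like Nes (0.89), B4galt2 (0.86) and Igf2 (0.86). The clustered genes had lower values, at 0.83 for Mmp10 with Kcnq1, Cntfr and Tle6, 0.77 for Mmp13 with Kansl3, followed by Atp9a and Agtrap at 0.74, and 0.73 for Mmp3 with Grm4, followed by Brf1 (0.71) and Arhgef26 (0.70). Of these 24 genes, 14 were also among the closest 3 on log2(TPM + 1) and 16 in the 32 leave-out libraries.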

How the data were processed

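RNA of 35 libraries was sequenced, and the submitters' processing notes name bcl2fastq, Bowtie2, RSEM and the mm10 build. Versions and the annotation release are not given in the sources used here. The deposited tables hold expected counts per gene, which RSEM estimates by dividing reads among matching genes, and TPM values, per the file headers. The labels name 2 kits with their sequencing runs without assigning libraries, so a batch cannot be told apart. A treatment label gives all 4 factors to every sample, and arms were taken from sample names.

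The expected counts were rounded and fitted with edgeR 4.0.16 (TMM, quasi-likelihood F test, R 4.3.3), with arm and day as terms. Genes needed at least 1 CPM in 3 libraries, which left 18135 genes in the 32 leave-out libraries and 16603 in the 15 libraries of days 2, 4 and 6. Benjamini-Hochberg adjustment covered all genes tested. Intervals of count ratios are exact and cover counting error only.

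Libraries of different arms are paired by day, which is in their labels, and the day term is that block. Replicate numbers follow accession order and mark nothing else. Alternatives were DESeq2 1.42.0, its size factors, no filter, limma 3.58.1 on log2(TPM + 1), no day term, other spans of days, all 35 libraries and each library left out. The test statistics were checked on simulated counts. Named genes are the 8 members, up to 4 called genes with the largest change per list and comparison, and the 3 most like each member; 1 list gene is not reported here. Members and lists were chosen with earlier results of these data known.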

Additional observations from a re-analysis of the deposited data

Results flagged for a closer look

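Of 32 groups of 8 libraries (8 genes in 4 leave-out arms), 12 had 1 library farther from the others than Dixon's 95% limit of 0.526 allows. Chance gives about 1 in 20 for values drawn independently from the same normal distribution. The libraries are successive days in TPM and the groups share libraries, so that rate need not hold here. Of the 12, 9 were libraries of day 0, which restates the difference between day 0 and later days given above. Plau on day 0 stood at 102.3 TPM in Minus-Jdp2, 90.6 TPM in Minus-Esrrb, 262.9 TPM in Minus-Glis1 and 152.4 TPM in Minus-Sall4, above every later value of its arm. Timp1 on day 0 stood at 537.9 TPM in Minus-Jdp2, 314.3 TPM in Minus-Esrrb and 435.4 TPM in Minus-Sall4. In Minus-Esrrb, Plaur (86.2 TPM) and Mmp9 (198.9 TPM) were also far above the rest on day 0.

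The other 3 were metalloproteinases at low counts. Mmp3 reached 17.4 TPM in Minus-Sall4 on day 5, and Mmp13 reached 6.06 TPM in Minus-Jdp2 on day 2 and 4.90 TPM in Minus-Esrrb on day 3.

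The slopes over days 0 to 7 differed between the leave-out arms for Mmp9 (adjusted p = 0.015), Plau (adjusted p = 0.017) and Timp1 (adjusted p = 0.039), by the quasi-likelihood test of edgeR.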

How the results depend on the processing

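No call on the 8 genes changed direction under any alternative run. Of 55 member calls, 38 held with each library left out and 17 were lost at least once. Without the day term, and so without the replicate block that pairs libraries by day, the genes called in Minus-Jdp2 versus Minus-Sall4 numbered 2 against 6 with it, and in Minus-Jdp2 versus JEGS 1 against 2. Minus-Jdp2 versus JEGS called 4 without the count filter and 1 by limma. Without the day term 10 member calls were lost: Plau in Minus-Jdp2 versus Minus-Esrrb (1.16, adjusted p = 0.24), Plau, Mmp9, Mmp10 and Timp1 in Minus-Jdp2 versus Minus-Sall4, Mmp13 and Timp1 in Minus-Esrrb versus Minus-Sall4, Mmp10 and Timp1 in Minus-Glis1 versus Minus-Sall4, and Timp1 in Minus-Jdp2 versus JEGS (1.62, adjusted p = 0.054). By limma 11 were lost, 5 of them slopes, and by DESeq2 2, both slopes (Mmp9 in Minus-Esrrb and Plau in Minus-Glis1). Slope calls moved most. In Minus-Jdp2 (1 by edgeR) they were 2 by DESeq2, 0 by limma, 2 on log2(day + 1) and 0 for days 5 to 7 versus days 0 to 2. In Minus-Esrrb (4) they were 2 over days 1 to 7. In Minus-Glis1 (2) they were 1 by limma, 0 for days 5 to 7 versus days 0 to 2 and 0 over days 1 to 7. In Minus-Sall4 (1) they were 2 by DESeq2, 0 by limma, 4 on log2(day + 1), 0 for days 5 to 7 versus days 0 to 2 and 2 over days 1 to 7. Over days 1 to 7, Mmp9 in Minus-Jdp2 versus Minus-Esrrb and Timp1 in Minus-Esrrb versus Minus-Glis1 became called, and the Mmp13 difference over all arms was lost. Slope differences (3) were 0 by limma, 0 for days 5 to 7 versus days 0 to 2 and 5 over days 1 to 7. The cause was not tested.

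With 1 library left out, the calls ranged over 4 to 5 in Minus-Jdp2 versus Minus-Esrrb, 3 to 4 versus Minus-Glis1, 4 to 7 versus Minus-Sall4 and 1 to 3 versus JEGS. They ranged over 3 to 4 in Minus-Esrrb versus Minus-Glis1, 6 to 7 versus Minus-Sall4 and 2 to 4 versus JEGS, over 5 to 6 in Minus-Glis1 versus Minus-Sall4 and 1 to 2 versus JEGS, and over 2 to 3 in Minus-Sall4 versus JEGS. For days 1 to 7 versus day 0, and for any difference between arms, they were 7 to 8. Slope calls were 0 to 2 in Minus-Jdp2, 0 to 4 in Minus-Esrrb, 0 to 3 in Minus-Glis1, 0 to 3 in Minus-Sall4 and 1 to 5 for slope differences. Depth limits Mmp3, Mmp10 and Mmp13 most, since medians of 4, 12 and 5 counts leave small differences undetectable.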
